A study of Gallus gallus with 6 samples.

Results

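Control explants of the chick wing bud, cultured for 48 h with DMSO alone, are described here by their own expression landscape. They are 3 of the 6 samples of the series and were chosen by treatment, as the 3 libraries given the solvent without the Fgf receptor inhibitor. Wild-type Gallus gallus embryos at Hamburger Hamilton stage HH20 gave the tissue, the posterior-distal part of the wing bud with its apical ectodermal ridge and polarising region. The explants were embedded in growth factor reduced Matrigel in serum-containing medium, and DMSO, or in the other 3 samples SU5402 at 5 µM, was added at the start of the culture. Each library was made from pooled, entire explants of 1 replicate experiment, so no value belongs to a single embryo, and the sex of the embryos is not given in the sources used here. With 1 group of 3 libraries there is no contrast to test, and values are given for each library, in the order of replicates 1, 2 and 3, with the mean, the SD and the coefficient of variation (CV, the SD as a percent of the mean).

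The limb bud is a core of mesenchyme under a jacket of ectoderm. At its tip the apical ectodermal ridge secretes Fgf proteins, and at its posterior margin the polarising region secretes Sonic hedgehog. The mesenchyme expresses nested sets of Hoxa and Hoxd genes, from which the upper arm, forearm and digits take their pattern, and gives rise to cartilage, tendon and connective tissue, while muscle precursors, endothelium and nerves enter from outside.

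Sequencing placed 25849833, 44261768 and 31687741 reads on genes. Levels between genes are compared as FPKM or, where stated, as shares of reads. FPKM are reads divided by a size factor of the library, then scaled by gene length and by a total that all libraries shared. A gene counts as expressed here when it reached 1 FPKM in every library. On that rule 12983 of 24981 listed genes were expressed, of them 11748 of 16779 protein-coding genes (70.0%), and 7353 protein-coding genes reached 10 FPKM and 637 reached 100 FPKM in every library. No read fell on 1230 protein-coding genes. The median level of an expressed protein-coding gene was 15.5 FPKM. A further 1199 genes reached 1 FPKM in some libraries but not in all. A gene with no read can still have up to 3 reads' worth of transcript at this depth, by counting error alone.

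Messenger RNA of protein-coding genes made up nearly all of the reads, 95.8%, 95.8% and 95.9% (95.8 ± 0.0908, SD, n = 3). Transcripts that the authors assembled without an Ensembl annotation took 2.15% ± 0.131, pseudogenes 0.965% ± 0.0203 and long non-coding RNAs 0.648% ± 0.0110 of the reads. Of 5504 annotated long non-coding RNA genes 401 were expressed (7.29%), and of 281 pseudogenes 170 (60.5%). The 133 microRNA and 118 snoRNA entries past 1 FPKM had a median length of 88 and 109.5 bases, and 69 and 93 of them lay within the span of another annotated gene. Reads on so short an entry in a poly(A)-selected library cannot be told apart from reads of a host or neighbouring transcript, and they do not measure mature small RNA.

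The expressed RNA was concentrated in few genes. The 10 most abundant genes of each library held 8.25%, 8.07% and 8.08% of its summed FPKM, the first 100 held 29.7%, 29.0% and 29.5%, and 568, 607 and 579 genes were enough for 50% of it. Of the 62 genes at 1000 FPKM or more in every library, 31 were on the list of 68 named ribosomal protein genes, which leaves out FAU and genes without a name. Another 9 were protein-coding genes of the mitochondrial genome. Among the top 100 genes by mean FPKM these were 42 and 11. The 2 ribosomal RNA genes of the mitochondrion also passed 1000 FPKM in every library and are not in these mitochondrial counts. The listed ribosomal protein genes together held 12.4% of the summed FPKM but 6.15% of the reads.

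The 4 genes with the highest FPKM were all mitochondrial. COX1, a catalytic subunit of cytochrome c oxidase, stood at 8566, 8248 and 8349 FPKM (mean 8388 ± 163 FPKM, MT:6645-8192 in GRCg6a), with no overlap with the next gene. COX3 and COII, subunits of the same complex, reached 6285, 5881 and 6017 FPKM and 6023, 5734 and 5753 FPKM, and their ranges overlapped. ATP6, a subunit of ATP synthase, followed at 5289.6 ± 46.8 FPKM. These transcripts of aerobic respiration differed little between the libraries, with a CV of 1.94% for COX1, 0.886% for ATP6 and 0.309% for CYTB, the cytochrome b gene. All 13 protein-coding genes of the mitochondrial genome were expressed, down to ND6 at 412 ± 41.5 FPKM and ATP8 at 209.5 ± 17.2 FPKM, and 4.0%, 3.95% and 3.99% of reads lay on the mitochondrial genome.

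Several glycolytic enzymes were abundant. GAPDH, which oxidises glyceraldehyde 3-phosphate, was the highest nuclear gene with 3292, 3048 and 3136 FPKM (chr1:77619214-77623350). ENO1, enolase, had 1843, 1957 and 2027 FPKM, and its range overlapped those of its neighbours in the order of levels. ALDOC, PKM, LDHA and TPI1 stood at 732, 697, 416 and 329 FPKM. All 19 measured genes of a hypoxia and glycolysis list of 24 were expressed above 10 FPKM, against 7353 of 16779 protein-coding genes. The summed level of the list was 9693, 9628 and 9745 FPKM, a CV of 0.605%. Per gene, the median CV of the list was 3.70%. Within that list, SLC2A1, the main glucose transporter of embryonic cells, had 139.8 ± 6.4 FPKM, VEGFA, the vessel growth factor, 101 ± 4.48 FPKM, and CA9, a carbonic anhydrase induced by low oxygen in mammals, 62.6 ± 3.4 FPKM.

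DDIT4 ranked 28 among protein-coding genes, at 1590.2, 1598 and 1574 FPKM (chr6:12170562-12174718). It encodes an inhibitor of mTORC1 signalling that mammalian cells induce under low oxygen, amino acid shortage and other stress. Its CV was 0.768%, below the median of 3.27% for genes above 1000 FPKM. The amino acid stress list, which shares DDIT4 with the glycolysis list, had 14 of 14 measured genes expressed, against 70.0% of protein-coding genes. After DDIT4 the list was led by the transcription factor ATF4 (381, 362 and 373 FPKM) and the secreted glycoprotein STC2 (236, 263 and 248 FPKM), with the asparagine synthetase gene ASNS at 69.05 ± 0.620 FPKM. All 20 measured chaperone genes were expressed as well, against the same 70.0%. The highest of them were HSPA8 at 322 ± 15.4 FPKM, the endoplasmic reticulum chaperone CALR at 312 ± 10.1 FPKM and PDIA3 at 302 ± 6.17 FPKM. The small heat shock gene HSPB1 was lowest at 8.48 ± 0.537 FPKM. These levels are of explants after culture, and uncultured wing buds were not analysed here.

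The protein synthesis machinery supplied most other names at the top. EEF1A1, which brings aminoacyl-tRNA to the ribosome, had 2674, 2512 and 2654 FPKM (chr3:81503064-81509231). RPS19, RPLP1, RPS6 and RPS23 were the highest ribosomal protein genes of the list, at 2270.2 ± 127 FPKM, 2214 ± 111 FPKM, 2209 ± 263 FPKM and 2062 ± 262 FPKM. FAU, a ribosomal protein fused to a ubiquitin-like peptide, had 2998, 2914 and 3053 FPKM, but its annotated length is only 276 bases, and the length of OST4, a subunit of the oligosaccharyltransferase with 1709.5 FPKM, is 114 bases. RPSAP58 at 1729.6 FPKM is described in the files as a ribosomal protein SA pseudogene while listed as protein-coding, so how its reads divide between near-identical copies is uncertain. Of the 30 most abundant protein-coding genes, 10 were on the ribosomal protein list, 8 mitochondrial, 3 of the glycolysis and hypoxia list and 2 actins.

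Both actins were at nearly the same level, with ACTG1 at 2263, 2224 and 2238 FPKM and ACTB at 2239, 2082 and 2119.8 FPKM, a ratio of 1.04 ± 0.0304 (SD, n = 3). TMSB4X, the actin-sequestering thymosin, had 1417 ± 125 FPKM, TUBB, a beta tubulin, 854 ± 60.5 FPKM, and VIM, the intermediate filament of mesenchyme, 642 ± 41.1 FPKM. PTMA, an acidic nuclear protein of dividing cells, reached 2184, 1971 and 2062 FPKM. Neighbours in this ranking were seldom separated by the libraries: the ranges of 22 of the 29 neighbouring pairs among the first 30 overlapped. Ranked by their share of reads in place of FPKM, only 16 of the 30 stayed in the list.

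**Figure D1:**
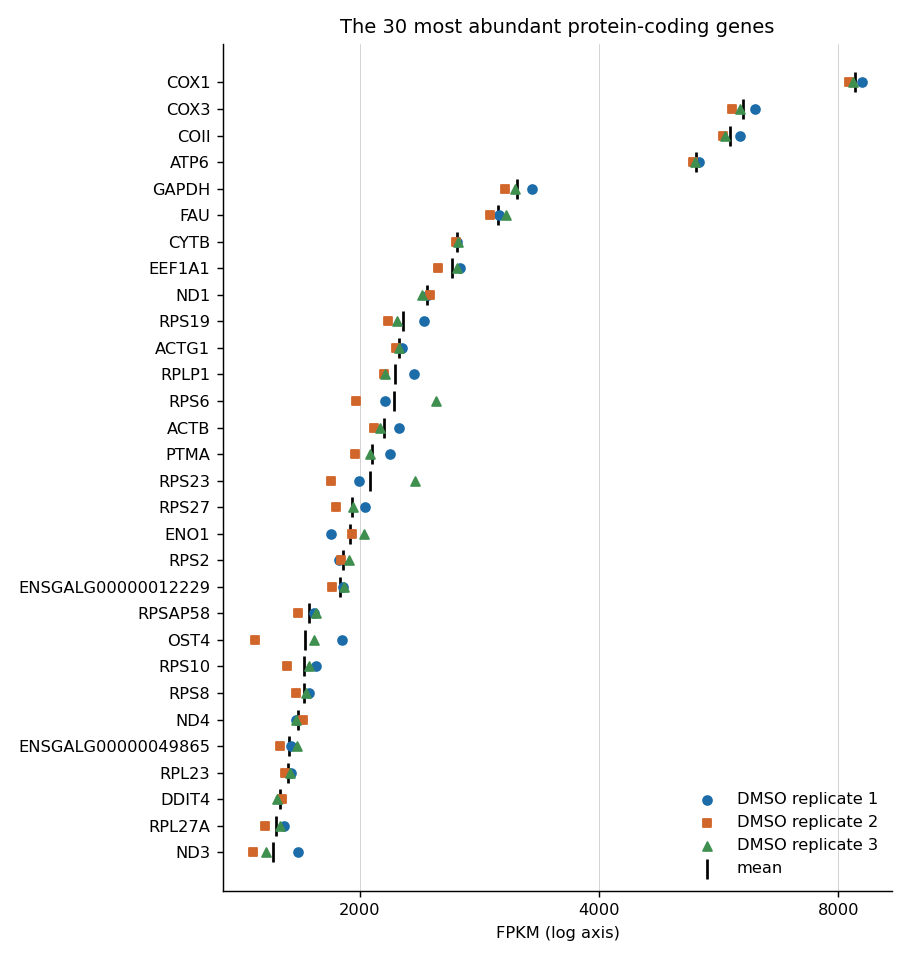
FPKM (log axis) of the 30 protein-coding genes with the highest mean, with 1 symbol for each DMSO library and a bar at the mean. COX1 lies alone at the top near 8388 FPKM, GAPDH is the highest nuclear gene, and RPS6 and RPS23 have their highest value in replicate 3.

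The highest entry outside the protein-coding class was a transcript of 5457 bases on chromosome 33 that the authors assembled outside the annotation (chr33:6249732-6255188), at 3012, 2627 and 2485 FPKM. It took 1.46% of all reads, more than COX1 with 1.28%, and most of the 2.15% that fell on such assembled transcripts. The files give it no name or domain, and the nearest named entry, RF01684, lies 5 bases away. The ribosomal RNA genes of the mitochondrion followed, at 1299 ± 27.6 and 1231 ± 77.9 FPKM. A microRNA entry of 81 bases, ENSGALG00000028375, had 1067 FPKM from 0.00854% of the reads and lies inside UBL7. Another, gga-mir-1732-1, had 258, 376 and 413 FPKM on 101 bases. It sits 2771 bases from HOXA9, between it and HOXA10, on chromosome 2 (chr2:32648693-32648793).

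Dividing cells were plainly represented. Of 27 measured proliferation genes 26 were expressed, against 70.0% of protein-coding genes. Above 10 FPKM in every library were 24 of the 27, against 7353 of 16779 protein-coding genes. PCNA, the sliding clamp of DNA polymerase, led the list at 252, 257 and 251 FPKM, with CDK1, the mitotic kinase, at 178, 169.7 and 169.5 FPKM. TOP2A, MKI67 and CCNB2, which mark cells in cycle, had 105 ± 2.09 FPKM, 33.2 ± 0.478 FPKM and 81.2 ± 1.41 FPKM. CDKN1A, the p21 inhibitor of the cell cycle, was at 4.48 ± 0.113 FPKM, against 60.1 ± 1.45 FPKM for CDKN1B. The list had a median CV of 2.82% per gene, against 3.98% for all genes of 30 to 100 FPKM, the range that holds the list's median level. Among histone genes the linker histone H1FX had 872 ± 45.01 FPKM, and the replacement histones, whose messages carry a poly(A) tail, were also abundant (H3F3B 822, H2AFV 637 and H2AFZ 266 FPKM), whereas the median over all 31 histone genes was 2.48 FPKM. Most replication-dependent histone messages have no such tail and are depleted by poly(A) selection.

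Transcription factor genes were found by the protein domain that the files give each gene, a single Pfam domain name, so a factor listed under another domain is missed. Of 635 genes with a DNA-binding domain 418 were expressed (65.8%), 238 at 10 FPKM or more and 25 at 100 FPKM or more in every library. Together they made up 2.57% to 2.64% of the summed FPKM. Genes listed under the homeobox domain name were the largest class and 74 of 144 were expressed, against 53 of 79 with a helix-loop-helix (HLH) domain, 22 of 37 forkhead and 8 of 17 T-box genes. Some homeobox genes are listed under other domains and are not in the 144. The class that holds MEIS1 had 13 of 13 expressed, and that of HOXA9 had 3 of 4. Of 12 genes with a Pou domain 2 were expressed, and all 10 E2F and TFDP genes, regulators of entry into DNA synthesis, were.

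Factors of limb mesenchyme led the ranking. SHOX2, a homeobox gene needed for the upper arm skeleton in mice, stood at 409, 433 and 430.0 FPKM (chr9:22759713-22763777), and HAND2, an HLH factor that activates Shh in the posterior limb bud, at 399, 405 and 437 FPKM (chr4:43384478-43385619). Their ranges overlapped, and no other factor reached the lowest value of either. PRRX1, a homeobox gene of limb mesenchyme, had 272, 281 and 294 FPKM, with a CV of 3.96%. TBX3, a T-box gene of the posterior and anterior margins, had 184, 194 and 194 FPKM, and TBX5, the T-box gene that marks the forelimb, 191, 185 and 191 FPKM. TBX3 and TBX5 lie close together on chromosome 15 (chr15:12495131-12505106 and chr15:12598201-12638563).

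Factors with broad roles shared the top of the list. ATF4 ranked next after HAND2, followed by HMGB1, HMGB2 and HMGB3 at 351, 317 and 226 FPKM. These HMG-box proteins, like SMARCE1 and SSRP1 (147 and 129.8 FPKM), bind chromatin without choosing particular genes, so their domain alone puts them in the class. TCF12 and TCF3, the E proteins that pair with tissue HLH factors, had 249.8 ± 9.0 FPKM and 108 ± 4.5 FPKM. The ID genes, which encode HLH proteins that lack a DNA-binding region and take up E proteins, were all abundant, with ID1 at 295, 269.9 and 333 FPKM, ID3 at 175, 167 and 183 FPKM, ID4 at 159, 145 and 155 FPKM and ID2 at 149, 124 and 156 FPKM. All of them were lowest in replicate 2. HES1, the Notch effector, had 185, 176 and 158 FPKM, SNAI1, the repressor of epithelial genes, 141, 138 and 140.0 FPKM, and SREBF2, the regulator of sterol synthesis, 146, 154 and 152 FPKM. Ranges of 21 of 29 neighbouring pairs among the first 30 overlapped, so the order is firm only in steps, such as that from HMGB3 down to TBX3.

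**Figure D2:**
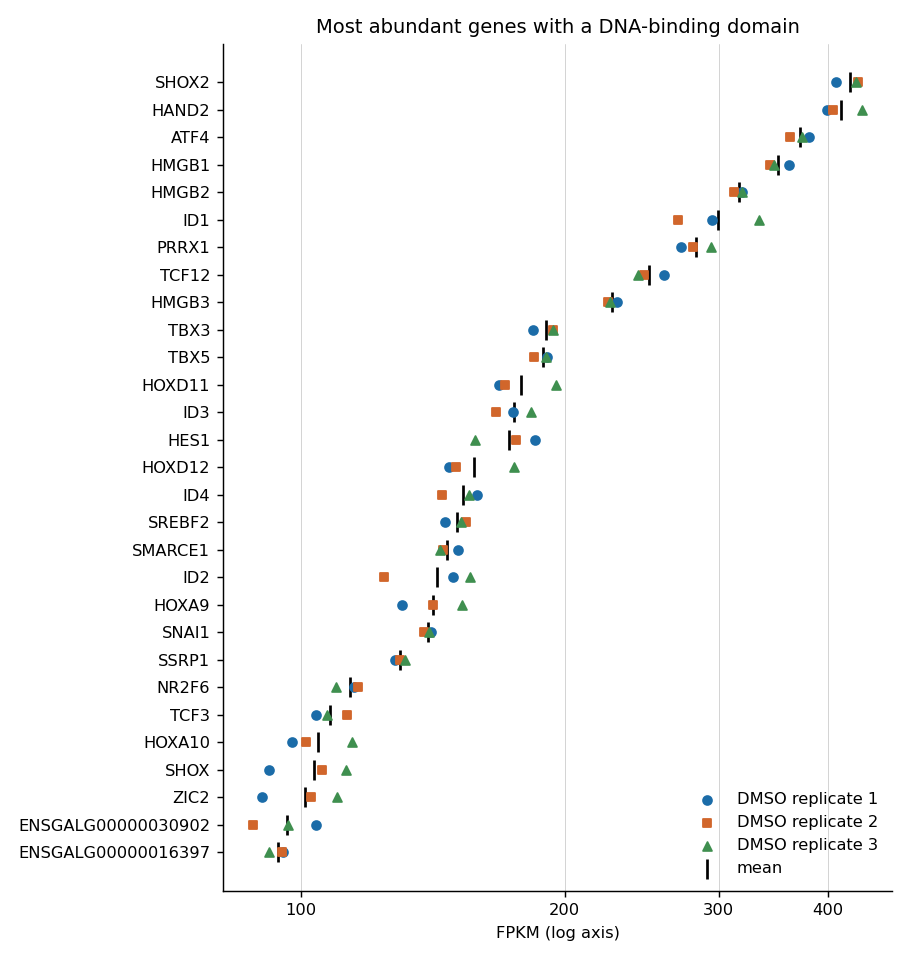
FPKM (log axis) of genes among the 30 with a DNA-binding domain that had the highest mean, with 1 symbol for each DMSO library and a bar at the mean. SHOX2 and HAND2 lie at the top at 424 and 414 FPKM, and HOXD11, HOXD12, HOXA9 and HOXA10 have their highest value in replicate 3.

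The Hox genes differed in level between the clusters and along them. Of 36 Hox genes 28 were expressed, against 70.0% of protein-coding genes. The Hoxd genes summed to 566, 593 and 658 FPKM with all 8 expressed, the Hoxa genes to 467, 500.1 and 531 FPKM with 10 of 11, the Hoxb genes to 49.5, 49.2 and 38.2 FPKM with 7 of 9 and the Hoxc genes to 36.6, 30.04 and 21.7 FPKM with 3 of 8. HOXD11 (169, 171 and 196 FPKM, chr7:16312439-16313967) and HOXD12 (147, 150.4 and 175 FPKM) were the highest, followed by HOXA9 (130.4, 141 and 153 FPKM) and HOXA10 (97.7, 101 and 114 FPKM). HOXD13, which acts in the digits, had 67.4, 75.1 and 84.05 FPKM, and HOXA11, which acts in the forearm, 54.1, 54.9 and 65.8 FPKM. Towards the other end of the Hoxd cluster HOXD10 averaged 69.2 FPKM, HOXD9 23.1 FPKM, HOXD8 53.8 FPKM, HOXD4 12.6 FPKM and HOXD3 35.3 FPKM.

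Beyond HOXA11 on chromosome 2 lies a homeobox gene without a name in the files, ENSGALG00000027234 (chr2:32680060-32682168), in the place that HOXA13 takes in the RefSeq order of genes. It had 8.48, 8.02 and 13.8 FPKM, below HOXA11 in every library, and the ratio of HOXD13 to it was 7.95, 9.37 and 6.11. Towards the other end of that cluster HOXA2, HOXA3 and HOXA4 averaged 33.7, 43.9 and 37.3 FPKM. HOXB13, HOXC11 and HOXC12 had no read in any library, and HOXC10, a hindlimb gene, had 0.0397 FPKM. The 9 genes of groups 9 to 13 in the Hoxa and Hoxd clusters, the unnamed one included, were all highest in replicate 3. Lowest in replicate 1 were 8 of them, and their sums were 759, 794 and 901 FPKM. Over the 12599 expressed genes with a mean of at least 50 reads, 3866 were highest in replicate 3 and 4175 lowest in replicate 1.

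**Figure D3:**
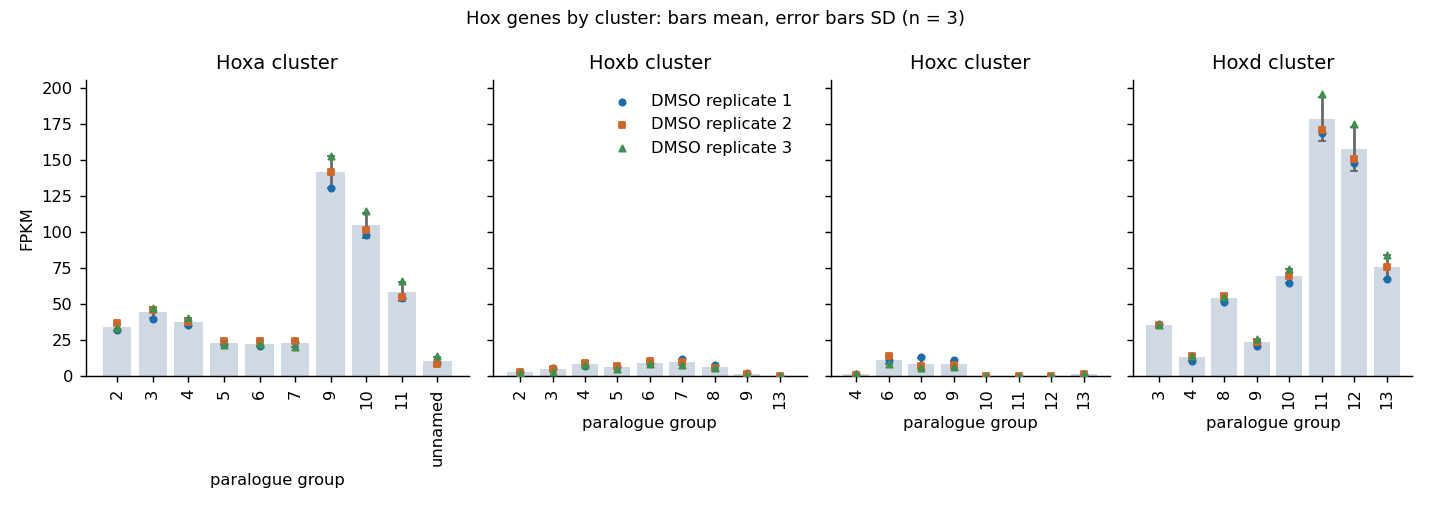
FPKM of Hox genes by cluster and paralogue group, with bars for the mean of 3 DMSO libraries, error bars for the SD and 1 symbol for each library. The Hoxa and Hoxd clusters peak at HOXA9 (141 FPKM) and HOXD11 (178 FPKM), and no Hoxb or Hoxc gene exceeds 13.8 FPKM in any library.

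Forelimb and hindlimb genes differed widely in level. TBX5 stood at 189 ± 3.58 FPKM, whereas TBX4, its hindlimb counterpart, had 0.151, 0.339 and 0.163 FPKM, PITX1, the hindlimb selector, 1.09, 0.942 and 1.17 FPKM, and ISL1, which precedes hindlimb outgrowth, 0.378, 0.109 and 0.0382 FPKM. TBX5 was 176, 196 and 163 times PITX1. HOXC9, also on this list, was not near the floor, at 10.7, 7.44 and 5.97 FPKM. Only TBX5 and HOXC9 of the 7 listed genes reached 1 FPKM in every library.

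The labels give the cell type as mesenchyme, and 24 genes of limb mesenchyme were listed. All 24 were expressed, against 70.0% of protein-coding genes. Above 10 FPKM in every library were 21 of the 24, against 7353 of 16779 protein-coding genes. The 24 had a median of 57.6 FPKM and a summed level of 2311, 2345 and 2448 FPKM. The list was chosen with earlier results of these data known, so it describes the libraries and does not check the label. Besides the factors above, MSX1 had 82.97, 88.8 and 104 FPKM, MEIS1 and MEIS2, markers of the proximal limb, 88.8 ± 2.08 FPKM and 75.9 ± 8.7 FPKM, TWIST1 83.9 ± 1.35 FPKM and the growth factor receptor PDGFRA 52.5 ± 0.355 FPKM. FGF10, the mesenchymal ligand that maintains the ridge, had 15.1, 17.8 and 21.3 FPKM. LHX9 was the most uneven of the 24, at 13.2, 6.96 and 6.77 FPKM, high in replicate 1, whereas LHX2, which acts with it beneath the ridge, had 20.5, 25.2 and 31.3 FPKM.

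Genes of both organisers were expressed after 48 h of culture. SHH, the ligand of the polarising region, had 7.7, 14.4 and 12.6 FPKM, lowest in replicate 1. Its receptor PTCH1 had 15.3, 16.5 and 18.6 FPKM, and GLI1, a direct target of the pathway, 16.6, 19.3 and 16.8 FPKM. SMO, the signal transducer, was higher at 106 ± 4.72 FPKM. All 11 genes of that list were expressed, against 70.0% of protein-coding genes. FGF8, the ridge ligand, had 4.71, 2.96 and 7.17 FPKM and SP8, a ridge transcription factor, 6.29, 6.66 and 5.53 FPKM. Of 14 measured ridge genes 10 were expressed, a share close to the 70.0% of all protein-coding genes. Only 2 of the 14 were above 10 FPKM in every library, against 7353 of 16779 protein-coding genes. DLX5 was highest at 32.1 ± 0.949 FPKM, and the ridge factor SP6 had 3.49 ± 0.262 FPKM. WNT3A and HOXC13 averaged 0.585 and 0.908 FPKM, and FGF4 had 0, 0.506 and 0.0545 FPKM, with none in replicate 1. In bulk tissue, fewer cells of a type and less RNA in each cell cannot be told apart, and this holds for all cell types below.

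Ectoderm genes were expressed at moderate levels. KRT19, a keratin of simple epithelium, had 106, 102 and 82.1 FPKM, CLDN1, of tight junctions, 74.3, 69.2 and 57.5 FPKM, EPCAM, the epithelial adhesion molecule, 48.9, 42.6 and 38.3 FPKM, and KRT14 27.4, 18.03 and 22.6 FPKM. Of 14 measured ectoderm genes 13 were expressed, against 70.0% of protein-coding genes. Of these 13, 10 were highest in replicate 1 and 11 lowest in replicate 3. Over the 12599 expressed genes with a mean of at least 50 reads, these tallies were 4694 and 4237. Summed over the list the levels were 357, 328 and 279 FPKM, a CV of 12.2%. WNT7A, the dorsal ectoderm ligand, did not follow, at 4.44, 4.56 and 4.72 FPKM.

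Endothelial genes were expressed throughout. All 15 measured genes were expressed, against 70.0% of protein-coding genes. CDH5, the endothelial cadherin, had 50.9, 51.1 and 52.6 FPKM, CLDN5 40.5 ± 2.41 FPKM and PECAM1 38.5 ± 0.955 FPKM. The 15 genes summed to 356, 339 and 341 FPKM, a CV of 2.62%. Of the mural cell genes, MCAM and PDGFRB had 45.4 ± 0.843 FPKM and 21.1 ± 1.7 FPKM, but these are also found outside mural cells. TAGLN had 18.4 ± 1.49 FPKM, ACTA2 9.17 ± 0.160 FPKM, DES 4.75 ± 0.365 FPKM and MYH11 2.56 ± 0.373 FPKM. The lowest of the 8 measured were RGS5 at 1.29 ± 0.353 FPKM and CNN1 at 1.01 ± 0.135 FPKM.

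Red blood cells left a moderate signal. HBBR had 96.9, 73.1 and 82.6 FPKM, HBZ 88.4, 63.8 and 73.2 FPKM and HBA1 49.4, 39.2 and 40.6 FPKM, all lowest in replicate 2, and ALAS2, the haem synthesis enzyme of red cells, 22.5, 22.4 and 26.01 FPKM. HBBA had no read, HBE1 averaged 0.0816 FPKM and SLC4A1 had 0.685, 0.741 and 1.21 FPKM. Of 10 measured red blood cell genes 7 were expressed, a share close to the 70.0% of all protein-coding genes. Of 12 macrophage genes 6 were expressed, below the 70.0% of all protein-coding genes, and none was above 10 FPKM in every library. The invariant chain CD74 had 9.9 ± 1.94 FPKM and the mannose receptor MRC1 4.37 ± 0.461 FPKM. The complement genes C1QA, C1QB and C1QC had 2.08, 3.61 and 2.08 FPKM and PTPRC, the leukocyte antigen, 0.428 ± 0.00463 FPKM. Of 9 measured neuronal genes 6 were expressed, a share no higher than that of all protein-coding genes. DCX had 8.63 ± 1.11 FPKM and ELAVL4 7.39 ± 0.505 FPKM, but SNAP25 0.141 ± 0.0842 FPKM. Of 11 measured genes of glia, neural crest and melanocytes 5 were expressed, below the 70.0% of all protein-coding genes. SOX10, a defining gene of neural crest glia, had 0.199, 0.196 and 0.0759 FPKM, and of the melanocyte genes DCT and MLANA had 0.0567 and 0.0468 FPKM and TYR no read. MITF and PMEL, of the pigment cell lineage, had 4.67 ± 0.566 FPKM and 3.31 ± 0.279 FPKM. EDNRB, ERBB3 and EDNRB2, the other expressed genes of that list, averaged 4.74, 3.30 and 1.29 FPKM.

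Muscle genes were expressed from precursor genes to some of differentiation. The median level was 13.6 FPKM over the precursor list, 5.42 FPKM over commitment genes and 1.22 FPKM over differentiation genes. Of 9 precursor genes 6 were above 10 FPKM in every library, against 7353 of 16779 protein-coding genes. Among the 6 were CXCR4 at 31.8 ± 2.37 FPKM and MEOX2 at 16.2 ± 3.65 FPKM. Which cells CXCR4 and MEOX2 came from cannot be told in bulk tissue. MET, also on the list, had 1.6 ± 0.256 FPKM. PAX3, the marker of migrating precursors, had 11.9, 12.4 and 10.9 FPKM and LBX1, which they need to migrate, 13.6, 15.4 and 14.4 FPKM. MYF5 and MYOD1, which commit cells to muscle, had 9.49, 6.27 and 9.19 FPKM and 6.08, 5.15 and 5.09 FPKM. MYOG, the gene of differentiation, was lower at 1.49, 2.17 and 0.429 FPKM, and PAX3 was 7.96, 5.73 and 25.5 times MYOG. The precursor gene PAX7 had 0.734, 0.744 and 0.796 FPKM. Of 14 measured contractile and late genes 6 passed 1 FPKM in every library, against 70.0% of protein-coding genes. TNNI1 led them at 5.92 ± 0.703 FPKM.

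Cartilage genes were expressed from the collagen of the condensation to the cartilage matrix. COL2A1, the main collagen of cartilage, had 158, 138 and 174 FPKM and SOX9, the chondrogenic master factor, 38.9, 38.2 and 48.7 FPKM. MATN4 had 67.03, 56.9 and 97.99 FPKM, CNMD, chondromodulin, 62.7, 53.4 and 79.3 FPKM and ACAN, the aggrecan gene, 12.1, 8.22 and 18.9 FPKM. Late markers were low, with COL10A1, of hypertrophic cells, at 2.18, 2.59 and 4.81 FPKM and IHH at 2.32, 1.26 and 1.73 FPKM. Of 16 measured genes 13 were expressed, against 70.0% of protein-coding genes. Of these 13, 9 were highest in replicate 3 and 10 lowest in replicate 2. Over the 12599 expressed genes with a mean of at least 50 reads, these tallies were 3866 and 4187. Summed levels of the cartilage list were 413, 355 and 507 FPKM, the largest CV (18.1%) of the cell type lists with more than 1 expressed gene.

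Connective tissue genes were higher than those of bone. COL1A2 and COL1A1, the chains of type I collagen, stood at 185, 190.1 and 181 FPKM and 165, 176 and 174 FPKM, a ratio of COL1A1 to COL1A2 of 0.927 ± 0.0317 (SD, n = 3). DCN and LUM, small proteoglycans of connective tissue, had 98.5, 86.2 and 77.8 FPKM and 75.7, 63.4 and 53.8 FPKM, and OSR2, a transcription factor of irregular connective tissue, 86.6, 71.4 and 59.2 FPKM. These 3 were highest in replicate 1 and lowest in replicate 3, but over the 14 expressed genes of the list 6 were highest in replicate 1, 4 in replicate 2 and 4 in replicate 3. SCX, the tendon factor, had 20.6, 21.4 and 17.5 FPKM but TNMD, a marker of mature tendon, 3.34, 3.3 and 2.52 FPKM. ALPL, alkaline phosphatase, had 34.1 ± 2.19 FPKM, BGLAP, osteocalcin, 15.4 ± 1.95 FPKM, RUNX2, the bone factor, 3.81 ± 0.326 FPKM and SP7, which acts after it, 6.7 ± 1.21 FPKM, and the mineralised-tissue gene DMP1 had 0.453 ± 0.101 FPKM. Matrix genes beyond the fibrillar collagens were led by MFAP2, a microfibril protein, at 504, 494 and 519 FPKM and SPARC at 259, 255 and 253 FPKM.

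Genes of other organs were listed to look for stray tissue. Of 14 measured genes such as ALB, TTR, INS, NKX2-1 and PAX6, 13 were below 1 FPKM in every library, and their mean levels ran up to 0.610 FPKM for GCG. The exception was SFTPC, a surfactant gene, with 1.27, 4.14 and 2.82 FPKM, which is annotated 2 bases from LGI3.

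**Figure D4:**
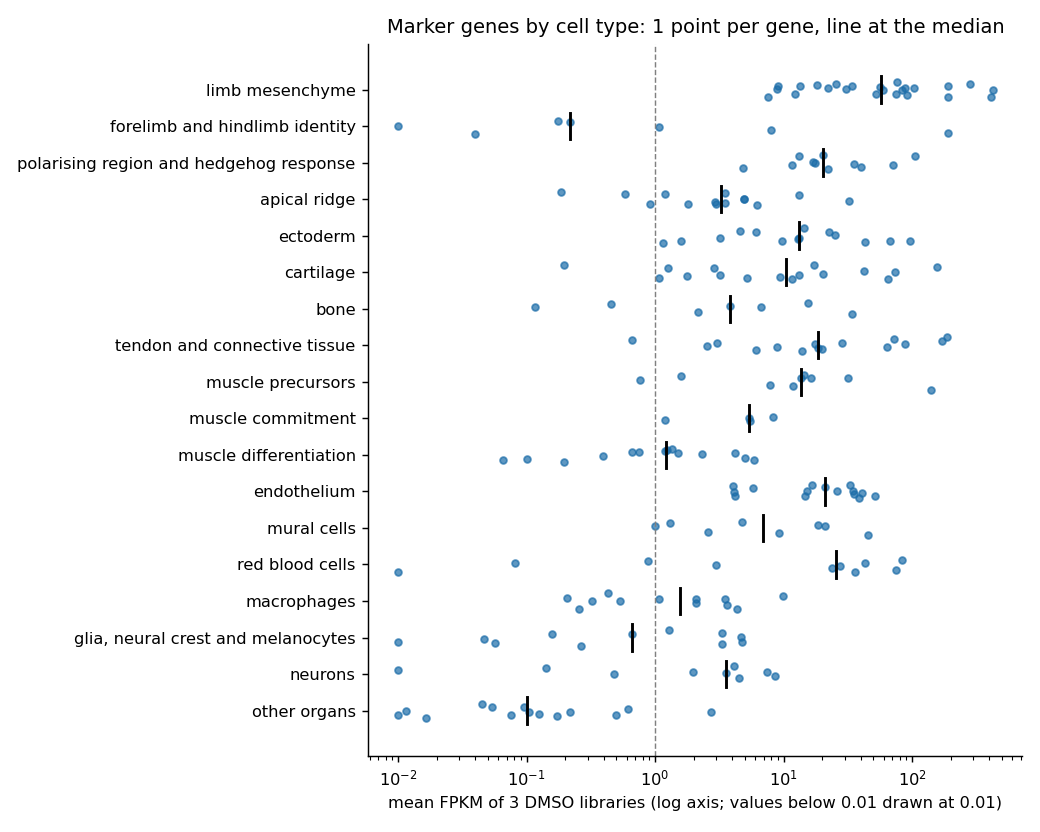
Mean FPKM of 3 DMSO libraries (log axis) for each gene of the cell type lists, with a line at the median of each list and a dashed line at 1 FPKM. The limb mesenchyme list lies highest, with a median of 57.6 FPKM, and glial, hindlimb and other-organ genes lie lowest.

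Several signalling pathways had ligands, receptors and feedback genes at measurable levels. Of the Fgf receptors FGFR1 was highest at 203, 201 and 211 FPKM, above FGFR2, FGFR3 and FGFR4 at 67.1, 24.7 and 23.4 FPKM, and the feedback phosphatase MKP3 had 40.9, 38.9 and 42.7 FPKM. BMP4 was the highest Bmp ligand at 45.8, 44.7 and 42.4 FPKM, before BMP2 at 19.7, 19.8 and 21.1 FPKM and BMP7 at 15.3 ± 1.78 FPKM, and of the antagonists GREM1 had 13.4 ± 1.23 FPKM and NOG 9.36 ± 2.29 FPKM. WNT5A, a ligand of distal mesenchyme, had 69.03, 74.7 and 84.9 FPKM and WNT6, of ectoderm, 32.9, 32.6 and 27.4 FPKM, and the next Wnt gene, WNT5B, 11.3 ± 1.79 FPKM. The Wnt antagonist FRZB had 120.0, 119 and 149.6 FPKM.

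Retinoic acid genes had very unequal levels. CRABP2 and CRABP1, which carry retinoic acid inside the cell, had 1307, 1229 and 1193 FPKM and 451, 406 and 330.5 FPKM, the first ranking 45 among protein-coding genes. CYP26B1, which degrades retinoic acid in the distal limb, had 67.5, 69.8 and 81.1 FPKM, and ALDH1A2, which makes it, 17.2, 16.9 and 18.03 FPKM, so that CYP26B1 was 3.91, 4.12 and 4.50 times ALDH1A2. Of the insulin-like growth factor genes, IGFBP2, a binding protein, had 256, 266 and 254 FPKM and the RNA-binding protein gene IGF2BP3 110.5, 111 and 112 FPKM, whereas the ligand IGF2 had 1.5, 1.5 and 0.809 FPKM and IGF1 was listed at 0 in every library.

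The 3 libraries were close to each other. Across the 12983 expressed genes, log2 FPKM of library pairs correlated with Pearson's r of 0.988 to 0.990 and Spearman's rho of 0.989 to 0.991. These are correlations over genes, which are not independent replicates, and describe these libraries only. Between 122 and 173 genes (0.940% to 1.33%) differed by more than 2-fold between a given pair. Averaged over genes, the squared departure of read counts from a split by depth was 9.48 to 10.1 times what counting alone gives. Genes with many reads weigh most in this average, so it is not the figure of a typical gene.

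The median CV was 6.43% and fell with the level. It was 15.9% for genes of 1 to 3 FPKM, 9.69% from 3 to 10, 5.69% from 10 to 30, 3.98% from 30 to 100, 3.48% from 100 to 1000 and 3.27% above. Genes with a DNA-binding domain had a median CV of 8.11%, against 5.99% for the other expressed protein-coding genes, with no account taken of their levels. Among the 10 named genes above 50 FPKM with the smallest CV were STT3B, a subunit of the oligosaccharyltransferase, with 60.9, 60.95 and 60.9 FPKM, PPP2CB, a catalytic subunit of protein phosphatase 2A, with 125, 125 and 126 FPKM, and the ornithine aminotransferase gene OAT with 75.1, 75.4 and 75.02 FPKM. All 10 had a CV of 0.0205% to 0.418%, less than counting error predicts.

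Part of the spread is counting error, and it can be taken off as the reciprocal of the mean read count. What remains, the biological CV, holds differences between pools and between library preparations alike. It exceeded 0.25 in 426 of the 12599 expressed genes with a mean of at least 50 reads (3.38%). When edgeR shrank each gene's value towards the trend of all genes, 9 passed 0.25. Of the 426, 181 were highest in replicate 1, 133 in replicate 2 and 112 in replicate 3, and 186 were lowest in replicate 3. Over all 12599 genes compared, 4694 were highest in replicate 1, 4039 in replicate 2 and 3866 in replicate 3. Lowest in replicates 1, 2 and 3 were 4175, 4187 and 4237 of them. By level, 13.97% of genes of 1 to 3 FPKM passed, against 0.530% from 30 to 100 FPKM and none above 1000 FPKM.

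Among named genes the largest biological CV, 0.627, belonged to ENPEP, a glutamyl aminopeptidase, at 4.58, 2.24 and 1.27 FPKM. FSTL3, a secreted antagonist of activin, had 5.02, 1.61 and 2.55 FPKM, NT5E, an enzyme that makes adenosine at the cell surface, 4.3, 3.32 and 1.34 FPKM and SCTR, the secretin receptor, 2.62, 1.16 and 1.26 FPKM, all highest in replicate 1. NRIP3 (1.22, 2.76 and 4.64 FPKM) and BARX1, a homeobox gene of joint and dental mesenchyme (3.06, 4.03 and 7.78 FPKM), were highest in replicate 3, and EN1, the ventral ectoderm factor (3.22, 4.09 and 1.4 FPKM), in replicate 2. Of the 15 most variable named genes, 12 were below 10 FPKM on average, and 3 short non-coding entries, RF00394, RF00438 and gga-mir-6653, were among them.

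A few genes with a DNA-binding domain were uneven. Of 410 such genes that had enough reads, 20 had a biological CV above 0.25, against 3.38% of all genes compared. By level, the share over all genes was 13.97% at 1 to 3 FPKM, 4.85% at 3 to 10 and 1.31% at 10 to 30. The median expressed gene with such a domain had 13.4 FPKM. A homeobox or Hox domain was listed for 12 of the 20 and for 74 of the 410. These counts leave out homeobox genes listed under other domains, such as IRX6. Among the 12 was Six2, a homeobox gene, with 48.04, 34.05 and 21.9 FPKM, highest in replicate 1 and lowest in replicate 3. HOXC8 (12.7, 7.04 and 5.58 FPKM), HOXC9 (10.7, 7.44 and 5.97 FPKM), LHX9, HAND1 (11.7, 9.37 and 6.18 FPKM) and TWIST3 (8.27, 4.37 and 3.39 FPKM) were likewise highest in replicate 1 and lowest in replicate 3. In all, 14 of the 20 were highest in replicate 1 and lowest in replicate 3, against 102 of the 410 and 2361 of all 12599 genes compared. BARX1 and the unnamed homeobox gene beyond HOXA11 were among the 4 that were highest in replicate 3. Of the 426 genes past 0.25, to which the 20 belong, 181 were highest in replicate 1 and 186 lowest in replicate 3. How many of the 426 were both was not counted.

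Sums over several cell type lists also differed between the libraries, but not all in the same order. Replicate 1 had the highest ectoderm sum (357 FPKM, against 328 and 279 FPKM in replicates 2 and 3), and replicate 3 had the highest cartilage sum (507 FPKM, against 413 and 355 FPKM in replicates 1 and 2) and the highest levels of the 9 posterior Hoxa and Hoxd genes. A biological CV above 0.25 was found in 3.38% of all genes compared and in 6 of 13 cartilage genes, COL9A1, ACAN, MATN1, MATN4, COL10A1 and IHH, as well as in LHX9, SHH, FGF8 and EN1, in EYA1 and MSTN of the muscle lists and in 3 of 15 Bmp and Gdf ligand genes. Among the genes compared, no ectoderm, endothelium, red blood cell, macrophage, proliferation, glycolysis or ribosomal protein gene passed that value. KRT5 of the ectoderm list and SLC4A1 of the red blood cell list were not compared, because they missed 1 FPKM in at least 1 library. Their biological CV was 0.537 and 0.317. The part of tissue make-up in the spread of single genes was not tested.

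**Figure D5:**
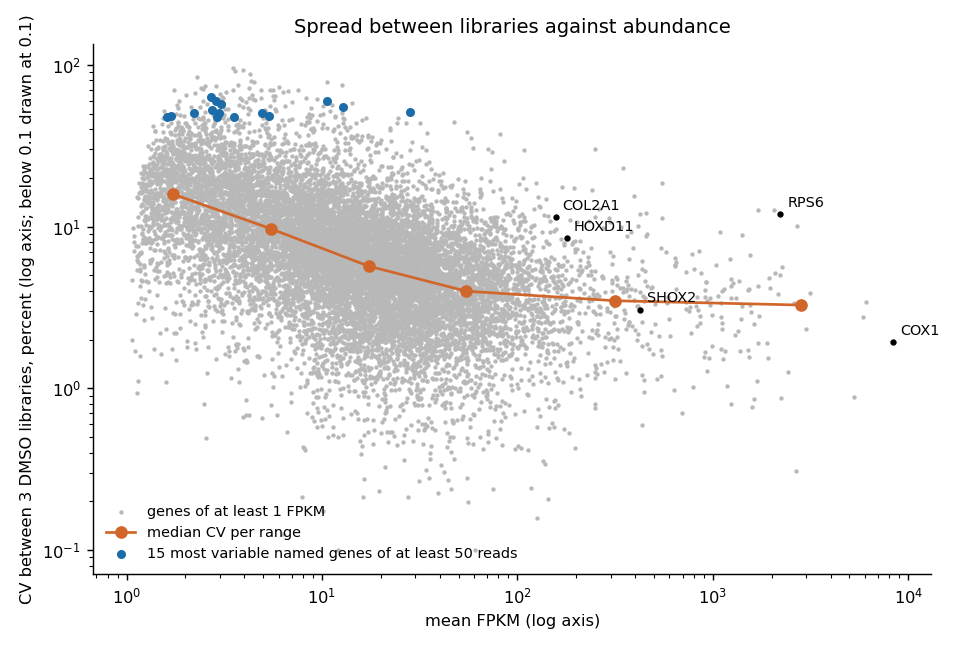
CV between the 3 DMSO libraries (percent, log axis) against mean FPKM (log axis) for each expressed gene, with the median CV of each range of levels joined by a line and the 15 most variable named genes in blue. The median falls from 15.9% at 1 to 3 FPKM to 3.27% above 1000 FPKM, and RPS6 lies far above the median of its range of levels.

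Replicate 3 also differed from the others on the sex chromosomes. Chickens are ZW in females and ZZ in males. Genes of the W chromosome took 0.165%, 0.174% and 0.0959% of the reads, and 31 of 33 expressed W genes were lowest in replicate 3, at a median of 1.13, 1.2 and 0.661 times their mean over libraries. Of 570 expressed Z genes 349 were highest in replicate 3, against 3993 of all 12983 expressed genes, and Z genes were at a median of 0.989, 0.947 and 1.06 times their mean. W genes had a biological CV above 0.25 in 24 of 31 compared and Z genes in 26 of 549, against 3.38% of all genes compared, which left 376 of the 426 on other sequences.

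The ribosomal proteins showed the same split. All 4 of those on the Z chromosome, RPS6 (2149.9, 1980.3 and 2497 FPKM, Z:33736390-33740880), RPS23 (1997, 1838 and 2349.6 FPKM, Z:63563409-63565254), RPL17 (1043, 1006 and 1196 FPKM) and RPL37 (594, 528 and 599 FPKM), were highest in replicate 3, against 18 of the 62 others. The median CV was 10.6% for the 4 and 3.42% for the 62. The share of male and female embryos in each pool is not given in the sources used here, and its part in these values was not tested.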

How the data were processed

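RNA was measured in 3 DMSO libraries of pooled wing bud explants, from 3 replicate experiments. Per the labels and methods, the authors selected poly(A) mRNA, mapped reads to GRCg6a with HISAT2 2.0.5 and counted them with featureCounts 1.5.0-p3. The strand setting of the counting is not given in the sources used here, so reads of a gene and an overlapping antisense gene cannot be told apart. The authors deposited a signal per gene, its reads divided by the DESeq2 1.20.0 size factor of the library. The authors also deposited FPKM values, which equal that normalized signal scaled by gene length and by a shared total of 33590126. Whole reads were recovered from the smallest step of the signal, and 100% of values came out whole (tolerance 0.01). FPKM tables held 3919 genes without such a signal, for which only FPKM was used. Columns of the authors' own comparison (a mean, log2 fold change, p-values) were not used.

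Genes at 1 FPKM or more in every library were taken as expressed. The biological CV took 1 over the mean reads off the squared CV, for expressed genes with at least 50 reads on average. With 1 group no test was made between groups. The rule for named genes took the 30 highest protein-coding genes and transcription factors, the 10 highest of other biotypes, the 15 most and 10 least variable named genes and 40 gene lists. The members and lists were chosen with earlier results of these data known. Of the gene names, 13688 came from the files and 736 through RefSeq. Calculations used Python 3.11.15, numpy 2.4.6, pandas 2.3.3, matplotlib 3.10.9, R 4.3.3 and edgeR 4.0.16, and were tested on simulated data. Depth was 25849833 to 44261768 reads, and a count of 0 allows up to 3 reads, by counting error only. A few genes that the rule named are not reported here. Alternatives changed the FPKM threshold, the scale, the shortest gene and the normalization, or left out a library.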

Additional observations from a re-analysis of the deposited data

How the results depend on the processing

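Counts of expressed genes held within 1.5 times under each threshold tried: 12983 genes, against 14029 at 0.5 FPKM and 11800 at 2 FPKM. Scale mattered more. The 100 most abundant genes held 29.4% of summed FPKM, 19.0002% of reads, and 30.1% when limited to protein-coding genes. Ribosomal protein genes held 12.4% of FPKM and 6.15% of reads, and protein-coding genes 95.8% of reads and 95.05% of FPKM. Only 16 of the 30 highest protein-coding genes stayed when ranked by reads, against 22 of the 30 transcription factors. The median CV of 6.43% was 8.91% without the FPKM filter and 4.74% above 10 FPKM, and as an SD of log2(FPKM + 1), another unit, 0.0843. Leaving out each library gave 4.94% to 5.43%. The 426 genes with a biological CV above 0.25 became 9 with edgeR, which by construction draws each gene to the trend, and 438 to 575 with a library left out. In all, 35 of 47 values stayed within their limits. An SD from 3 libraries is itself imprecise, and low genes carry more counting error. No paired analysis was possible because there is only 1 group and no comparison between groups.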

Other observations

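Among the short entries of large spread, RF00394 lies inside EIF4A2 and RF00438 inside RPS12, on the same strand as their hosts. The transcription factors above 0.25 in biological CV also held IRX6 at 11.7, 9.57 and 5.9 FPKM, SP5 at 2.87, 2.25 and 1.26 FPKM and MEOX1 at 6.2, 5.05 and 3.46 FPKM, in the order of replicates 1, 2 and 3. TPM4 was the single cytoskeleton gene past that value. No read was assigned to IGF1 in any library.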
